A study of Mus musculus with 10 samples.

Results

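The Ly49 receptor family was followed in EM γδ T cells through 9 genes, Klra1, Klra3, Klra4, Klra5, Klra6, Klra7, Klra8, Klra9 and Klra10, which are 9 of the 27179 genes counted in each library. They were found by their Entrez IDs, which name these symbols. This rule uses no measured value, but the members were chosen with earlier results of these data known. All 9 passed the filter on low counts and were tested. RNA-sequencing was performed on CD3+ γδTCR+ CD62L- CD44+ cells that had been FACS-sorted from the spleens of female C57BL/6 mice that were 6 to 8 weeks old at the time of infection. Pre-exposed mice (n = 5) had received 50000 red blood cells infected with *P. chabaudi*, and were given chloroquine and pyrimethamine from day 14, with spleens taken 12 weeks after this treatment. Naïve mice (n = 5) received no parasites and the same drugs, so that the groups share the treatment and differ in the infection. Each mouse gave 1 library, and the comparison asks which transcripts differ in resting cells long after a treated infection.

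Ly49 receptors are C-type lectin-like proteins of the cell surface that bind MHC class I molecules, and are best known from NK cells, where each cell displays only some of them. Most carry an immunoreceptor tyrosine-based inhibitory motif (ITIM) in the cytoplasmic tail and recruit phosphatases that dampen activation, whereas Ly49D and Ly49H lack this motif and signal through the adaptors DAP12 and DAP10. They are also found on innate-like T cells, among them γδ T cells and memory CD8+ T cells, and the alleles of the C57BL/6 strain include Ly49C and Ly49I, which bind its own class I molecule H-2Kb, and Ly49H, which binds a glycoprotein of mouse cytomegalovirus.

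The start of each coding sequence shows this division of the family. The 48 bases from the start codon are given 5′ to 3′ from the GENCODE M21 transcripts (GRCm38), with the 6 codons at the place of the inhibitory motif in capitals (bases 16 to 33).
Klra4: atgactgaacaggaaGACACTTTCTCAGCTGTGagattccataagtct
Klra8: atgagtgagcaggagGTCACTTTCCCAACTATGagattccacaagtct
Klra9: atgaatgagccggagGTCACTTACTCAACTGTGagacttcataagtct
Klra10: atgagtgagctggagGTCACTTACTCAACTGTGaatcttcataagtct
Klra3: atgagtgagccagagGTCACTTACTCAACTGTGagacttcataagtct
Klra5: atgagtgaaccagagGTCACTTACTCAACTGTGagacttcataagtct
Klra6: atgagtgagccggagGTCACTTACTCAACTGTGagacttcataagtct
Klra7: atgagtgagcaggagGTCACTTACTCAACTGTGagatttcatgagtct
Klra1: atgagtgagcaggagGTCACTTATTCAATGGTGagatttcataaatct
In 7 genes the capitals hold a tyrosine codon, TAC or in Klra1 TAT. Klra4 (Ly49D) and Klra8 (Ly49H) have TTC there and no inhibitory motif.

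All 9 genes lie on the minus strand of chromosome 6, between bases 129898988 (the end of Klra5) and 130386874 (the start of Klra1) of GRCm38, which is mm10, the build of the files. Coding sequences of the 36 pairs were 74.0% to 96.9% identical, with a median of 80.8%. Klra9 (Ly49I), Klra10 (Ly49J) and Klra3 (Ly49C) formed the closest group, at 95.9% to 96.9%, and Klra8 was 91.9% identical to Klra9. In 5 pairs an identical coding stretch was as long as a whole read of 75 bases, and those of the genes called below are printed because a read from them has by itself no single origin. The longest one of Klra8 and Klra9, 106 bases (coding bases 481 to 586 in both), that of Klra9 and Klra10, 95 bases (523 to 617 in both), and that of Klra8 and Klra10, 82 bases (255 to 336 in both), read as follows.
Klra8 and Klra9: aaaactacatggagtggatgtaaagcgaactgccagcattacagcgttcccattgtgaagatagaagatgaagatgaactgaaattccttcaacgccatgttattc
Klra9 and Klra10: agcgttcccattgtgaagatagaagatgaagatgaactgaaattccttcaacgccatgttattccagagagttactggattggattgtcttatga
Klra8 and Klra10: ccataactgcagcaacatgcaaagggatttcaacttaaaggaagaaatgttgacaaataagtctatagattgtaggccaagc
Over all annotated transcripts, 19.7% of the windows of 75 bases of Klra8 were shared with other Klra genes, most of them with the pseudogene Klra14-ps (16.03%), and 2.90% with Klra9. The share was 12.8% for Klra10, of which 5.47% with Klra9, 8.22% for Klra9, 6.39% for Klra3 and 5.71% for Klra7. Klra1 and Klra4 shared 0.237% and 0.342%, and Klra5 and Klra6 none. These shares leave out the pseudogene Klra11-ps, which held 70 windows of Klra9, 41 of Klra10 and 9 of Klra3. Of these windows, 50 of Klra9 and 12 of Klra10 were not counted in the shares above. None of the sources used here says how read pairs with several origins were counted, so the split of counts between Klra8, Klra9, Klra10 and Klra3 is uncertain.

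Libraries of naïve mice held 6587199 to 19993444 counts and those of pre-exposed mice 8747888 to 22542832. The 9 genes together had 1057 to 6903 counts in naïve and 4525 to 12311 in pre-exposed libraries. Pre-exposed mouse 5 stood apart, since 24.7% of its counts fell on its top 10 genes (5.61% to 10.2% in the remaining 9 libraries), and it is therefore given separately throughout. The sample labels of pre-exposed mice 2 to 4 also lack the index pair that those of the other libraries carry, so mice 1 and 5 are those that share the labelling of the naïve mice. Of the γδ T cell markers, Trdc, the δ chain constant region, was abundant in all 10 libraries, at 1826 to 3873 CPM (the count relative to the TMM-scaled library size) in naïve and 1141 to 3626 in pre-exposed mice. In these sorted pools, more cells with a transcript and more transcript per cell cannot be told apart.

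Of the 9 Ly49 genes, 3 were upregulated in the pre-exposed mice, Klra9, Klra8 and Klra10, and none was downregulated (edgeR, adjusted p below 0.05; 4 genes had an unadjusted p under 0.05, each higher). Over all 12655 genes tested, 6.3% were called, of which 5.12% higher and 1.18% lower. Without mouse 5 the same 3 genes were called, against 9.17% of all genes higher and 5.61% lower. With DESeq2 3 were called as well, each higher, against 7.97% of all genes higher and 2.7% lower. None passed when limma tested against 1.5-fold with TREAT (3 at an unadjusted p under 0.05), where 2 of all genes were called. The median log2 fold change was 0.88 over the 9 genes and 0.02 over all genes tested, and that of the 9 genes was 0.42 without mouse 5 and -0.11 with mice 2 to 4. Klra9 and Klra10 encode receptors with an inhibitory motif and Klra8 the activating Ly49H.

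Klra9, the most abundant of the 3, was measured at 52.5, 32.8, 38.0, 21.3 and 24.7 CPM in naïve mice 1 to 5, and at 176, 106, 327, 142 and 1229.9 CPM in pre-exposed mice 1 to 5. The groups did not overlap, with the lowest pre-exposed mouse, mouse 2, above naïve mouse 1 and mouse 5 far above the rest. The group means were 33.9 ± 12.3 and 396 ± 474 CPM (SD, n = 5). The log2 fold change was 3.54 ± 0.61 (SE; edgeR, adjusted p = 0.0103), and 2.43 ± 0.33 without mouse 5 (adjusted p = 0.000448). An exact permutation test on log2 CPM gave p = 0.00794 (two-sided), the smallest that 5 against 5 mice allow. Klra9 passed with each of the 10 libraries left out in turn (adjusted p of 0.000448 to 0.0400), and in mice 1 and 5 alone the change was 4.43 ± 0.56 (adjusted p = 0.0266), where 0.182% of all genes were called higher and 0 lower.

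Klra8, the activating receptor, was rare in naïve mice, at 1.61, 2.48, 2.29, 0.591 and 1.44 CPM, or 5 to 48 counts per library. In pre-exposed mice it stood at 4.19, 9.25, 14.2, 8.74 and 70.7 CPM. The groups did not overlap (exact permutation test, p = 0.00794), and mouse 5 was again the highest and mouse 1 the lowest of the pre-exposed mice. The log2 fold change was 3.51 ± 0.72 (edgeR, adjusted p = 0.0185) and 2.29 ± 0.43 without mouse 5 (adjusted p = 0.00474). The call was lost in mice 1 and 5 alone (4.40 ± 0.79, adjusted p = 0.0667), and without naïve mouse 1, 2, 4 or 5 (adjusted p of 0.0504 to 0.0671), where the log2 fold change was 3.34 to 3.72.

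Klra10 was as rare, at 3.23, 1.19, 1.28, 1.30 and 1.16 CPM in naïve mice and 4.47, 3.55, 12.2, 6.94 and 65.0 CPM in pre-exposed mice. All pre-exposed mice lay above all naïve mice (exact permutation test, p = 0.00794), although pre-exposed mouse 2 exceeded naïve mouse 1 only narrowly. The log2 fold change was 3.38 ± 0.80 (edgeR, adjusted p = 0.0283) and 1.96 ± 0.49 without mouse 5 (adjusted p = 0.0194). This call was the least stable of the 3, and was lost without any single naïve mouse or without pre-exposed mouse 2 (adjusted p of 0.0565 to 0.0725), in mice 1 and 5 alone (0.0665), and after removal of the trend with gene length (2.56 ± 0.73, adjusted p = 0.0920). The log2 fold change was 3.27 to 3.82 without these single mice and 4.40 ± 0.79 in mice 1 and 5. The groups were without overlap and higher in pre-exposed mice for these 3 of the 9 genes and for 2.77% of all genes tested.

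**Figure D1:**
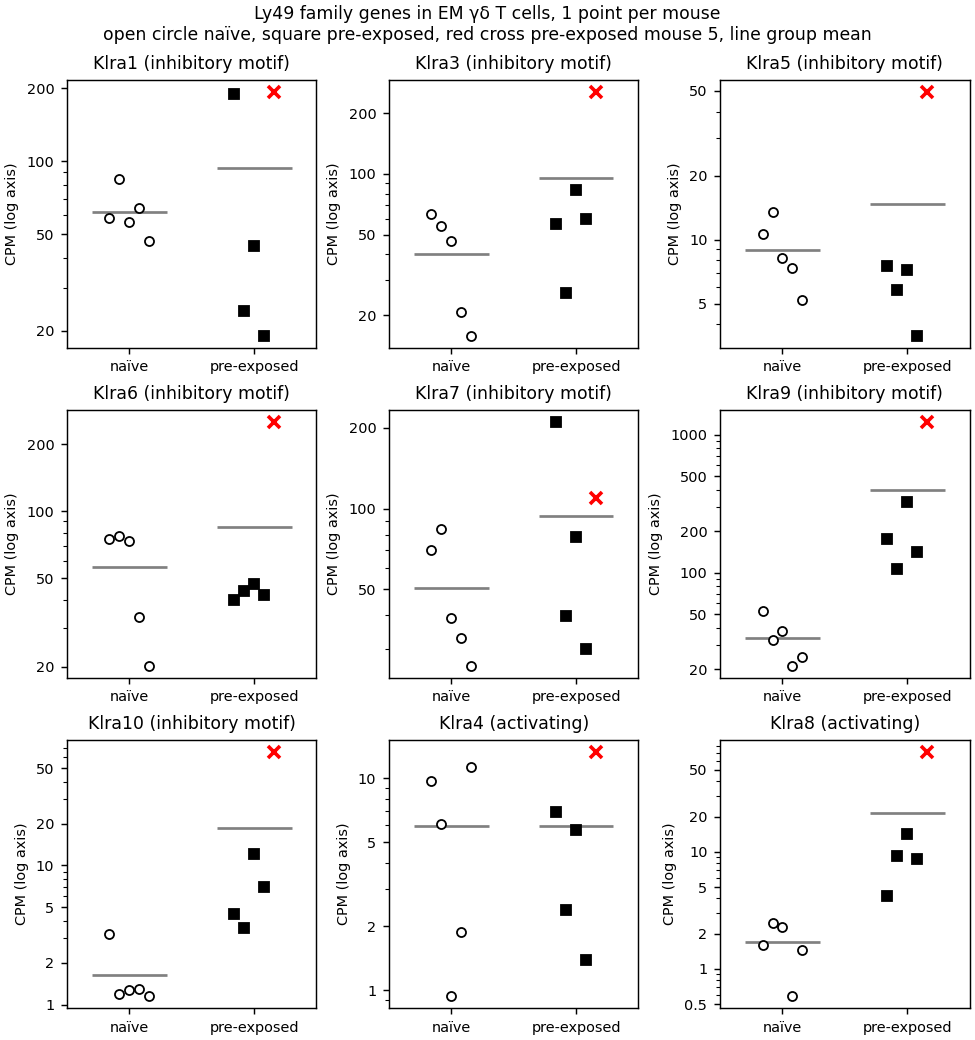
Level of each Ly49 gene in CPM (log axis) for 5 naïve mice (open circles) and 5 pre-exposed mice (squares, with mouse 5 as a red cross), with lines at the group means. For Klra9, Klra8 and Klra10 all pre-exposed mice lie above all naïve mice, whereas for the other 6 genes the groups overlap.

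The other activating receptor, Klra4 (Ly49D), did not pass. It lay at 9.69, 6.10, 0.942, 1.89 and 11.3 CPM in naïve mice and at 6.94, 2.38, 5.73, 1.39 and 13.3 CPM in the pre-exposed group. The log2 fold change was -0.10 ± 0.65 (edgeR, adjusted p = 0.944). The groups overlapped almost completely, so that of the pair that signals through DAP12 only Klra8 was called.

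Among the inhibitory receptors, Klra3 (Ly49C), the gene most like Klra9 and Klra10, measured 63.1, 55.2, 46.7, 20.7 and 15.9 CPM in naïve mice and 56.4, 25.9, 83.1, 60.1 and 254 CPM in pre-exposed mice. Only mice 3 and 5 exceeded all naïve mice. The log2 fold change was 1.23 ± 0.53 (edgeR, adjusted p = 0.166) and 0.42 ± 0.38 without mouse 5.

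Klra1 (Ly49A), the founding member of the family, lay between 46.8 and 84.5 CPM in naïve mice. The pre-exposed mice stood on both sides of this range, at 189.6, 24.2, 44.8, 19.2 and 193 CPM, with mice 1 and 5 above it and mice 2 to 4 below it. Over all mice the log2 fold change was 0.59 ± 0.54 (edgeR, adjusted p = 0.537). With mice 1 and 5 alone Klra1 was called higher (1.68 ± 0.27, adjusted p = 0.0387), and with mice 2 to 4 alone lower (-1.14 ± 0.29, adjusted p = 0.00886), in a fit that called 14.9% of all genes higher and 14.9% lower. These subsets are also those with and without the index pair in the sample labels, and whether the preparation differed was not tested.

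Klra7 (Ly49G) reached 209.6 CPM in pre-exposed mouse 1 and 109.7 CPM in mouse 5, above the naïve range of 26.0 to 84.0 CPM, whereas mice 2 to 4, at 30.1 to 78.2 CPM, lay inside it. Its log2 fold change was 0.88 ± 0.47 (edgeR, adjusted p = 0.271). Mouse 1 was thus the highest for this gene, the only one of the 9 whose maximum was not in mouse 5.

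Klra6 (Ly49F) and Klra5 (Ly49E, known from fetal NK cells and intestinal γδ T cells) were each high in a single library. Klra6 was 40.0, 43.7, 47.3 and 42.0 CPM in pre-exposed mice 1 to 4, within the naïve range of 20.2 to 77.0 CPM, and 251.6 CPM in mouse 5. Klra5 was 3.54 to 7.51 CPM in pre-exposed mice 1 to 4, against 5.20 to 13.5 CPM in naïve mice, and 49.4 CPM in mouse 5. Neither passed (edgeR, log2 fold changes of 0.58 ± 0.53 and 0.59 ± 0.61, adjusted p = 0.534 and 0.593), and without mouse 5 both values turned negative, at -0.41 ± 0.32 and -0.67 ± 0.36.

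**Figure D2:**
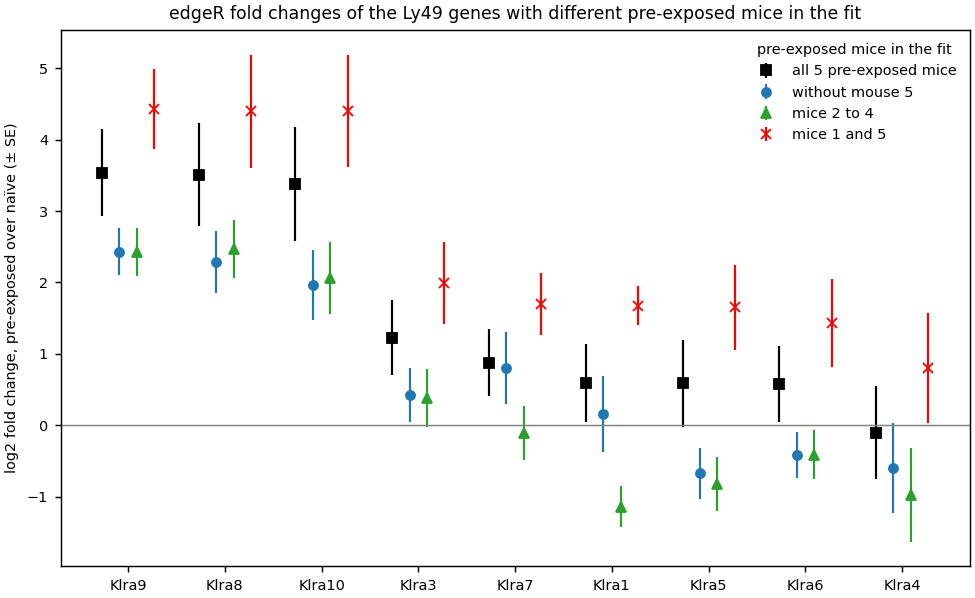
Log2 fold change of pre-exposed over naïve (± SE, edgeR) for each Ly49 gene, fitted with all 5 pre-exposed mice, without mouse 5, with mice 2 to 4 and with mice 1 and 5. Klra9, Klra8 and Klra10 lie between 1.96 and 4.43 in all of these fits, while Klra1 runs from -1.14 with mice 2 to 4 to 1.68 with mice 1 and 5.

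Levels of different genes were compared as CPM per kb of exon length. In naïve EM γδ T cells the order was Klra6 (50.1 ± 24.2), Klra7 (40.8 ± 20.4), Klra1 (37.2 ± 8.44), Klra3 (31.2 ± 16.3) and Klra9 (28.4 ± 10.3 CPM per kb, SD, n = 5), followed by Klra5 (7.77), Klra4 (6.16), Klra10 (1.98) and Klra8 (1.43). Among neighbours in this order only Klra9 and Klra5 had ranges that did not overlap, so that 5 genes formed a higher and 4 a lower tier. In pre-exposed mice Klra9 was at the top on average, at 332 ± 397 CPM per kb or 157 ± 81.3 without mouse 5, and it exceeded Klra6, the second of that order (76.1 ± 83.5), in 5 of 5 mice. Klra9 ranked highest of the 9 in pre-exposed mice 2 to 5, after Klra7 in mouse 1, and between rank 3 and rank 5 in the naïve mice. Klra4 was last on average in pre-exposed mice, at 6.12 CPM per kb.

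The make-up of the Ly49 counts within a library does not depend on library scaling. Of the counts of the 9 genes, Klra9 took 15.3%, 9.20%, 14.3%, 11.6% and 16.2% in naïve mice. Its share was 25.3%, 40.7%, 52.8%, 45.2% and 55.0% in the pre-exposed group. The lowest pre-exposed share, in mouse 1 (95% Wilson interval 24.4% to 26.3%), stayed above the highest naïve one, in mouse 5 (14.1% to 18.5%). The shares of a library add up to a fixed whole, so a larger share of Klra9 lowers those of the other genes. The share of Klra5 was 3.07% to 3.99% in naïve mice and 1.08% to 2.22% in pre-exposed mice, without overlap. Its level in CPM did overlap, at 5.20 to 13.5 in naïve and 3.54 to 49.4 in pre-exposed mice. Klra1 made up 16.9% to 35.0% in naïve mice and 6.10% to 9.29% in pre-exposed mice 2 to 5, but 27.3% in mouse 1. The activating pair Klra4 and Klra8 together held 1.21% to 8.33% in naïve and 1.60% to 4.46% in pre-exposed mice.

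**Figure D3:**
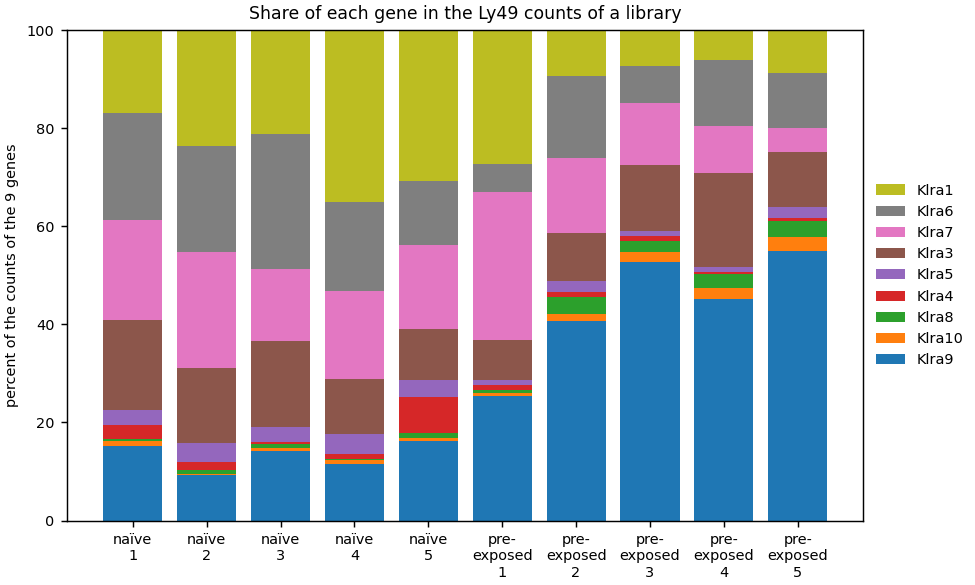
Share of each gene in the counts of the 9 Ly49 genes (percent, stacked to 100) for each library. Klra9 (blue, at the bottom) rises from at most 16.2% in naïve mice to between 25.3% and 55.0% in pre-exposed mice.

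Relative to Klra9 of the same library, Klra10 and Klra8 overlapped between the groups. There were 3.36 to 6.15 counts of Klra10 per 100 counts of Klra9 in naïve mice and 2.54 to 5.29 in pre-exposed mice, and 2.78 to 7.56 against 2.38 to 8.70 counts of Klra8. Mouse 5, with the highest level of all 3 genes, was inside the naïve range for both ratios. Klra3 behaved differently, at 64.3 to 168 counts per 100 of Klra9 in naïve mice and 20.7 to 42.3 in pre-exposed mice, without overlap. Since Klra10 and Klra8 share stretches of coding sequence with Klra9 and are far less abundant, whether reads of Klra9 entered their counts was not tested.

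**Figure D4:**
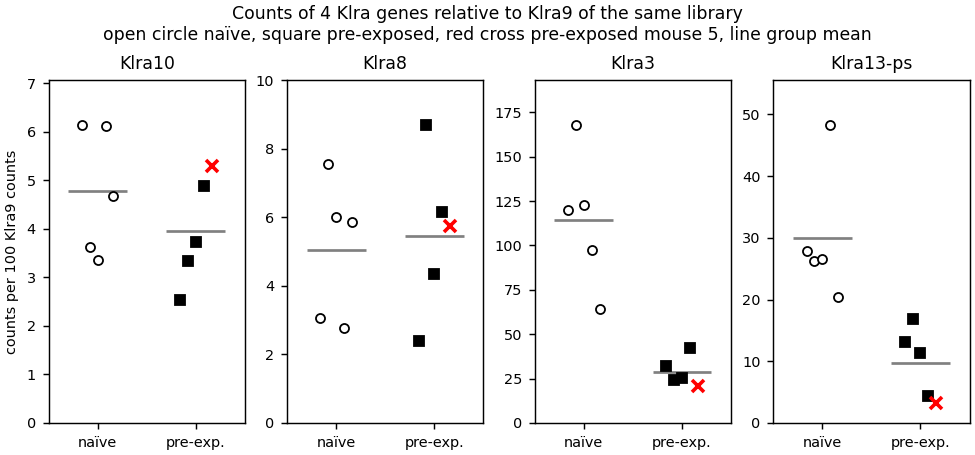
Counts of Klra10, Klra8, Klra3 and the pseudogene Klra13-ps per 100 counts of Klra9 in the same library, with symbols as in the plot of levels. The groups overlap for Klra10 and Klra8, while for Klra3 all pre-exposed mice (20.7 to 42.3) lie below all naïve mice (64.3 to 168).

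The summed level of the 9 genes was 344, 357, 266, 183 and 153 CPM in naïve mice and 695, 261, 619.7, 314 and 2237 CPM in pre-exposed mice. Mice 1, 3 and 5 exceeded all naïve mice, and mice 2 and 4 were within their range. The ratio of group means was 3.16, and 1.81 without mouse 5, which alone stood at 8.58 times the naïve mean. The 5 tested genes outside the Klra family with profiles over the 10 libraries nearest to this sum were Gm16892, Rpl22l1, Gins1, Magohb and Timm9. Their root mean square differences were 0.43 to 0.48 in log2 CPM, and none passed the test. Each was highest in mouse 5, which the choice itself favours because the sum peaks there.

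The remaining 4 Klra genes of the table are 2 pseudogenes and 2 receptors of other cells. Klra14-ps, which shares sequence with Klra8, was 0.144 to 1.18 CPM in naïve mice and 5.14, 3.65, 28.7, 1.87 and 11.99 CPM in pre-exposed mice. It was called higher (log2 fold change 3.95 ± 0.79, edgeR, adjusted p = 0.0150), with its maximum in mouse 3 and not in mouse 5. Klra13-ps did not pass (1.31 ± 0.43, adjusted p = 0.0810). Klra17 (Ly49Q), known from plasmacytoid dendritic cells, had 1 count in naïve mouse 1 and 0 in the other naïve mice, each of which allows up to 3 counts. In pre-exposed mice it stood at 29.3, 16.9, 19.3, 3.40 and 1.09 CPM, and it was left out by the filter. Klra2 (Ly49B), a receptor of myeloid cells, was 0 to 2.96 CPM in naïve mice and 13.2, 8.08, 7.004, 1.04 and 0 CPM in pre-exposed mice (2.34 ± 0.85, edgeR, adjusted p = 0.107), and without mouse 5 it was called higher (2.58 ± 0.72, adjusted p = 0.0302). Both were thus highest in mice 1 to 3 and lowest in mouse 5, where Klra9, Klra8 and Klra10 peaked.

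In a list of adaptors and proximal kinases, 6 of 11 genes were upregulated and none was downregulated (5.12% and 1.18% of all genes). The median log2 fold change was 1.12. Of these genes, Tyrobp and Hcst encode the adaptors of activating Ly49 receptors, while Fcer1g and Sh2d1b1 belong to other receptors. Without mouse 5 the count was again 6 higher and 0 lower (9.17% and 5.61% of all genes). Tyrobp, which encodes DAP12, was 21.7 to 31.3 CPM in naïve mice and 170.3, 303, 109, 93.1 and 40.0 CPM in pre-exposed mice (2.48 ± 0.42, edgeR, adjusted p = 0.00927). Its groups did not overlap, but mouse 5, with the most Klra8, had the least Tyrobp of the pre-exposed mice. The summed monocyte and macrophage markers, 956, 1474, 619, 319 and 45.2 CPM in the same mice, were in the same order as Tyrobp, and their part in it was not tested. Hcst, which encodes DAP10, rose from 98.2 to 158 CPM in naïve mice to 172 to 310.3 CPM in pre-exposed mice (1.04 ± 0.23, adjusted p = 0.0225). Fcer1g, the Fc receptor γ chain, rose by 2.23 ± 0.36 (adjusted p = 0.00818) and Sh2d1b1, an adaptor of SLAM family receptors, by 2.51 ± 0.60 (adjusted p = 0.0296), the latter with 1.09 CPM in mouse 5, inside the naïve range. The other called genes of the list were the kinase Syk, at 0.363 CPM in mouse 5 and 7.08 to 39.4 CPM in the other pre-exposed mice, and the phospholipase Plcg2. With the trend in gene length removed, 3 of the 11 genes were called (1.39% of all genes higher), and Hcst (0.06 ± 0.21) and Tyrobp (1.72 ± 0.45, adjusted p = 0.0690) were not among them. With mice 1 and 5 alone, where 0.182% of all genes were called higher, none of the 11 passed, at a median of 1.26 and with 2.08 ± 0.42 for Tyrobp.

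Genes of inhibitory signalling and of the class I ligands did not pass. Of the 6 phosphatases and related regulators that follow an inhibitory motif, none was called by edgeR or DESeq2, 0 had an unadjusted p under 0.05, and the median log2 fold change was 0.09. The 4 with the smallest p were Inpp5d, which encodes SHIP-1 (-0.52 ± 0.28, adjusted p = 0.271), Ptpn11, which encodes SHP-2 (0.50 ± 0.30, 0.317), Dok1 (0.21 ± 0.32, 0.738) and Dok2 (-0.17 ± 0.33, 0.791; edgeR). Of the 7 genes for class I molecules and their loading, none was called by edgeR or DESeq2 either, and 1 had an unadjusted p under 0.05. B2m, the light chain of class I molecules, was 28765 CPM in mouse 5 against 5232 to 12826 CPM in the other 9 mice (0.78 ± 0.36, adjusted p = 0.198). H2-K1, the ligand of Ly49C and Ly49I, was 3419 to 4176 CPM in naïve and 3273 to 5057 CPM in pre-exposed mice (0.15 ± 0.21, adjusted p = 0.716), and Nlrc5 and Tapbp had -0.31 ± 0.27 and -0.19 ± 0.30.

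Among 16 other receptors of the NK gene complex 1 was called higher (5.12% of all genes), and the median log2 fold change was 0.14. Without mouse 5 the median was -0.34, and 1 of the 16 was called higher and 1 lower (9.17% and 5.61% of all genes). The lower one was Klri1, named after its values were seen (-1.20 ± 0.31, edgeR, adjusted p = 0.0237). Over all mice the called gene was Klrg1, a marker of effector differentiation. It lay at 5.32 to 14.7 CPM in naïve mice and 98.4, 50.1, 112, 17.2 and 11.3 CPM in pre-exposed mice (2.78 ± 0.57, edgeR, adjusted p = 0.0184). Mouse 5 was inside the naïve range for Klrg1 while it led for Klra9. Klrk1, which encodes NKG2D, stood at 591 to 1097 CPM in the pre-exposed group and 379.9 to 557 CPM in naïve mice. Its groups did not overlap, as for 2.77% of all genes tested with pre-exposed mice higher, but it did not pass (0.67 ± 0.23, edgeR, adjusted p = 0.0906). Klrb1b and Klrb1f had 1.19 ± 0.46 and 0.74 ± 0.29 (adjusted p = 0.128 and 0.135).

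Of 13 transcription factors of NK and innate-like T cells none passed over all mice with edgeR, with a median of -0.04. Only Tcf7 had an unadjusted p under 0.05 in that fit. DESeq2 called 1 of the 13 lower (2.7% of all genes). Tcf7, which encodes TCF-1, a factor known to act on the Ly49a promoter, was at 275 to 423 CPM in the pre-exposed group, below the whole naïve range of 467 to 591 CPM (exact permutation test, p = 0.00794), and its log2 fold change was -0.65 ± 0.20 (edgeR, adjusted p = 0.0692). Without mouse 5 it was 1 of 2 factors of the list called lower (-0.61 ± 0.18, edgeR, adjusted p = 0.0390), against 5.61% of all genes. Groups without overlap and lower in pre-exposed mice were found for 2.17% of all genes tested. Id2, Zbtb16, which encodes PLZF, and Prdm1, which encodes Blimp-1, had 0.38 ± 0.38, -0.79 ± 0.45 and 0.27 ± 0.38.

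The 250 bases before the transcription start in the RefSeq table were compared for the 9 genes (GRCm38.p6). In Klra9, Klra10 and Klra7 these windows lie inside the span of the gene in the annotation, downstream of its outermost start. Those of Klra9 and Klra3 are printed because they are the most alike, 96.1% identical over 233 aligned bases, while Klra9 was called and Klra3 was not. Capitals mark the bases of each that differ or have no partner within the aligned part, 6 in Klra9 (chr6:130193113-130193362, minus strand) and 9 in Klra3 (chr6:130337627-130337876, minus strand).
Klra9: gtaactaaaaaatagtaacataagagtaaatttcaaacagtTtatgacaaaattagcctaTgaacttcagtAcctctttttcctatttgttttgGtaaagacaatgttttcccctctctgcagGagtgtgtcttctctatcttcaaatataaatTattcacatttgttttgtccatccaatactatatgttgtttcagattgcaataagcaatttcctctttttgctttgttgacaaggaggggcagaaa
Klra3: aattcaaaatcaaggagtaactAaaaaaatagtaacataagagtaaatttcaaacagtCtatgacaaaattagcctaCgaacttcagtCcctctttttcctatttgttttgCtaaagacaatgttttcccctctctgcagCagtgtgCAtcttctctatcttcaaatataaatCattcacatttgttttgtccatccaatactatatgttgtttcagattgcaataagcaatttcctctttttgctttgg
On either strand, the TCF motif CTTTGA was in the windows of Klra6 and Klra7 and in 3797 of 27025 promoter windows of this length (14%), and the Runx motif TGTGGT was in that of Klra1 and in 14.2% of all. The T-box motif GGTGTGA was in none of the 9 and in 3.31% of all. The 3 motifs share no sites in these windows, and none was in the windows of Klra8, Klra9 or Klra10. The windows of Klra8 and Klra9 were 72.2% identical over 209 bases, and those of Klra9 and Klra10 could be aligned over 20 bases only.

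Markers of other cell types were measured beside the Ly49 genes. Of 11 NK cell markers, 2 were called higher, Fcgr3 and Gzma (5.12% of all genes), and the median log2 fold change was 0.24. Their summed level was 1639 to 3097 CPM in naïve mice and 2489, 2071, 3674, 2405 and 5474 CPM in pre-exposed mice, with mice 3 and 5 above the naïve range, and of the 11 only Fcgr3 was at 0 in any library, a naïve one. Klrb1c, Klre1 and Klri2 of this list also belong to the receptors of the NK gene complex. In mouse 5, Klre1 alone, at 3118 CPM, made up most of the sum, while Prf1 (10.2 CPM) and Il2rb (575 CPM) were the lowest of all libraries there. Ncr1, the NK receptor NKp46, was 10.8 to 41.9 CPM in naïve and 17.5 to 53.7 CPM in pre-exposed mice, with 27.3 CPM in mouse 5 (0.77 ± 0.40, edgeR, adjusted p = 0.253). Klra9 per summed NK marker level was 0.0106 to 0.0223 in naïve and 0.0513 to 0.225 in pre-exposed mice, without overlap. Per Ncr1 it was 0.784 to 2.83 in naïve and 1.98 to 45.1 in pre-exposed mice, with mouse 2 within the naïve range. The gate required CD3 and the γδTCR, and the part of NK cells in the Ly49 values was not tested.

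Of 7 markers of γδ T cells 1 was called higher, Cd3d (5.12% of all genes), a CD3 chain and thus not particular to γδ T cells. The receptor constant regions were not called higher. Their ratios of group means were 0.883 for Trdc, 0.665 for Trgc1, 1.06 for Trgc2 and 0.931 for Trgc4. Together the 7 markers summed to 6477 to 11230.1 CPM in naïve mice and 4317, 10684, 11782, 9238 and 14822 CPM in pre-exposed mice. The 9 Ly49 genes per Trdc were 0.0831 to 0.116 in naïve mice, against 0.609, 0.115, 0.201, 0.167 and 0.617 in the pre-exposed group, of which mouse 2 fell within the naïve range. Without mouse 5, Trgc1, a γ chain constant region, was called lower (-0.90 ± 0.22, edgeR, adjusted p = 0.0199), as were 5.61% of all genes. Of 6 αβ T cell markers 1 was called higher, Trac (5.12% of all genes). Without mouse 5, where 9.17% of all genes were called higher, so were Cd4 (2.13 ± 0.32, edgeR, adjusted p = 0.00106) and Cd8a (1.71 ± 0.38, adjusted p = 0.0118). The sum of the 6 αβ T cell markers was 1642 to 1992 CPM in naïve mice and 1576 to 3289 CPM in pre-exposed mice.

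Markers of monocytes and macrophages (4 of 4 tested called higher, of 8 counted), of dendritic cells (4 of 8), of B cells (2 of 3 tested, of 5) and of erythroid cells and neutrophils (4 of 6 tested, of 7) were also upregulated. Over all genes tested, 5.12% were called higher. The monocyte and macrophage sum was 35.3 to 158 CPM in naïve mice and 956, 1474, 619, 319 and 45.2 CPM in pre-exposed mice, and the dendritic cell sum was 113 to 166 CPM and 669, 617, 328, 294 and 99.2 CPM. Mouse 5, where Klra9, Klra8 and Klra10 peaked, was thus within or below the naïve range for both sums. In that mouse Csf1r was at 0.545 CPM and Lyz2 at 26.9 CPM, and Cd14, Fcgr1 and Ms4a7 were at 0, as they were in 3, 5 and 2 of the naïve mice. Adgre1, at 14.4 CPM, and Flt3, at 5.995 CPM, were above their naïve ranges of 0.404 to 3.08 and 0 to 2.83 CPM in mouse 5. The erythroid and neutrophil sum, 83.6 to 471 CPM in naïve mice, was highest in mouse 5, at 2036 CPM, and 385 to 1713 CPM in the other pre-exposed mice. The B cell sum was 42.3 to 97.2 CPM in naïve and 43.2 to 133 CPM in pre-exposed mice, and Pax5 was at 0 in all libraries. The part of these markers in the Ly49 values was not tested beyond these levels.

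**Figure D5:**
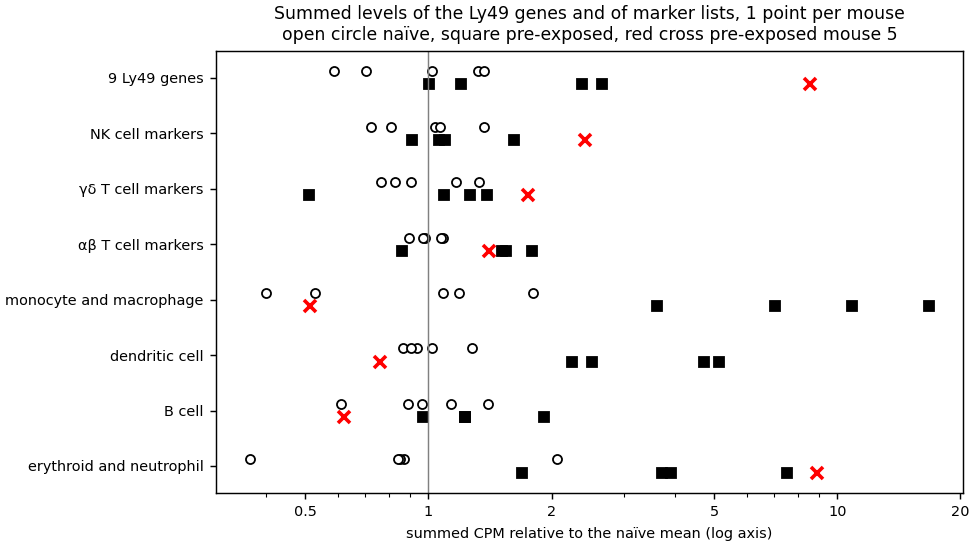
Summed CPM of the 9 Ly49 genes and of each marker list, relative to the naïve mean (log axis), for 5 naïve mice (open circles) and 5 pre-exposed mice (squares, with mouse 5 as a red cross). Mouse 5 is at 8.58 for the Ly49 genes but within the naïve range for monocyte and B cell markers and below it for dendritic cell markers.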

How the data were processed

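EM γδ T cells of 5 naïve and 5 pre-exposed mice were sequenced as paired 75-base reads, and samples were grouped by their titles. For alignment to mm10 the authors used Subread, and read pairs were summarized per Entrez gene by featureCounts with its built-in NCBI annotation; the deposited values are whole-number counts, not normalized. No version, strand setting or handling of multi-mapping pairs is given in the sources used here. As library kit, the study names a SMART ultra-low kit (1 ng of RNA) and the sample labels a TruSeq kit.

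Genes were filtered with filterByExpr (13534 of 27179 kept), and genes without a symbol (767) and immunoglobulin genes (112) were left out, as in the study's methods, so that 12655 were tested. Symbols came from RefSeq by Entrez ID (25275 matched). Libraries were scaled by TMM. Groups were compared with edgeR 4.0.16 (R 4.3.3; quasi-likelihood, legacy set to FALSE, robust), two-sided and without covariates, with Benjamini-Hochberg adjustment over all tested genes and a threshold of 0.05. SE is the size of the fold change over the square root of F. Exact permutation tests used the 252 splits of log2 CPM (prior count 2). DESeq2 1.42.0 and voom with TREAT at a fold change of 1.5 (limma 3.58.1) were alternatives. The study also names voom and TREAT at this fold change. Its own list of called genes holds Klra9, Klra8 and Klra10, which voom and TREAT without quality weights did not call here. The cause of this difference was not tested. Further alternatives were other scalings, filters, a replicate block, a length offset (loess, span 0.3), the label style as a covariate and left-out libraries. The edgeR, DESeq2 and voom fits, the block and the length offset were tested on simulated counts. All pairs of libraries of a group differed beyond sampling noise (chi-square over the number of genes 20.6 or more). Each library is labelled as a replicate, and p-values measure the spread between these libraries. Intervals and the limit of 3 counts behind a 0 (95% confidence) cover counting error only.

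The members and gene lists were chosen with earlier results of these data known. Named genes are the 9 members, the other Klra genes, the up to 4 genes of each list with the smallest p, the 5 genes nearest to the summed Ly49 profile, and the cell type markers; Syk, Plcg2 and Klri1 were named after their values were seen. Zfp683 and Hbb-bt were not among the symbols matched. The level of 1 cell type marker is not reported here. Protein sequences were not used here, so likeness was computed on coding bases (Biopython 1.88).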

Additional observations from a re-analysis of the deposited data

Results flagged for a closer look

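Single libraries stood apart from the rest of their group of 5 by Dixon's test (critical value 0.71) in 7 of the 18 groups examined, which are the 9 Ly49 genes in naïve and in pre-exposed mice. Chance gives such a result in about 1 in 20 groups. In 6 of the 7 it was pre-exposed mouse 5 that was far above the other pre-exposed mice. For Klra6 the gap between mouse 5 and the next mouse made up 0.966 of the range (251.6 CPM in mouse 5), and for Klra5 0.913 (49.4 CPM). For Klra10 it was 0.860 (65.0 CPM), for Klra8 0.850 (70.7 CPM), for Klra9 0.804 (1229.9 CPM) and for Klra3 0.750 (254 CPM). These 6 results share 1 library and are not independent of each other. The remaining one was Klra10 in naïve mouse 1, at 3.23 CPM against 1.16 to 1.30 CPM in the other naïve mice (0.931), which at these counts, 44 against 8 to 23, rests on few reads. Klra1, Klra4 and Klra7 had no such library in either group.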

How the results depend on the processing

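The directions of Klra9, Klra8, Klra10 and Klra3 held in all 27 alternatives. The call of Klra9 was lost in 2 of them, that of Klra8 in 9 and that of Klra10 in 13; adjusted p ranged from 2.67e-07 to 0.182 for Klra9, from 1.42e-05 to 0.502 for Klra8 and from 0.000146 to 0.609 for Klra10. The count of called Ly49 genes, 3 over all mice, was 0 with voom and TREAT (3 at an unadjusted p under 0.05), 1 with voom and no fold threshold and 2 with quality weights and TREAT or with the length offset. It was 4 with the label style as covariate, with Klra1 added (1.62, adjusted p = 0.0464), and 4 with mice 2 to 4, with Klra1 lower. With each library left out it was 1 to 3, and it was 1 without naïve mouse 1, 2, 4 or 5. The summed level, a log2 ratio of 1.66, was 0.86 without pre-exposed mouse 5.

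Over all genes, 797 were called. The count was 358 with the older dispersion method of edgeR, 1350 with DESeq2, 2, 287 and 96 with voom and TREAT, with quality weights and without fold threshold, 219 with the length offset, 40 with the label style as covariate, 23 with pre-exposed mice 1 and 5, 3777 with mice 2 to 4, and 53 (without naïve mouse 1) to 1870 (without pre-exposed mouse 5) with each library left out.

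No pairing of the mice by replicate number was seen in the correlations of same-numbered libraries, which were -0.10, -0.13, 0.0012, 0.053 and -0.26. Such correlations of single libraries cannot exclude a shared step of the preparation. With the replicate number as a block, 1 Ly49 gene (Klra9) and 55 genes in all were called, and with block and length offset 0 (3 at an unadjusted p under 0.05, edgeR) and 24.

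Signs changed only among members that were not called over all mice. Klra1 was -0.14 with voom (with and without TREAT), -0.51 with quality weights, -0.045 with the block, -0.30 with block and length offset and -1.14 with mice 2 to 4. Klra5 was -0.30 with voom, -0.45 with quality weights, -0.087 with the block, -0.55 with block and length offset and -0.82 with mice 2 to 4. Klra6 was -0.075 with quality weights, -0.37 with block and length offset and -0.41 with mice 2 to 4, and Klra7 was -0.11 with mice 2 to 4. Klra4, at -0.10 over all mice, was 0.024 with DESeq2, 0.31 with quality weights, 0.012 with the block, 0.74 with the label style, 0.80 with mice 1 and 5, and above 0 without naïve mouse 1 or 5 or pre-exposed mouse 2 or 4. With each library left out, Klra4 lay between -0.60 and 0.21, Klra5 between -0.67 and 0.84 and Klra6 between -0.41 and 0.78. The causes were not tested. Depth limits Klra8 and Klra10 most, with 5 to 48 and 8 to 44 counts per naïve library.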
